A study of Mus musculus with 18 samples.

Results

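The Rbfox family of neuronal splicing regulators was followed in Neuro2A (N2A) cells, a line from a mouse neuroblastoma, in RNA of nuclei and of whole cells. Its 3 members, Rbfox1, Rbfox2 and Rbfox3, were taken as the loci whose symbol is 1 of these names, and each name matched 1 locus among 168136 loci, of which 52179 carry a symbol. The family was chosen because Rbfox2 had passed some settings of a test in whole cell *miR-92b* pulldowns, so values in those samples are described here without a test.

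The cells were wild type, and 18 samples formed 6 groups of 3. In the *miR-92b* groups, cells were transfected with a biotinylated mimic of *miR-92b*, and in the Scr groups with a biotinylated scrambled sequence, each at 25 nM. RNA held by the mimic was then collected on streptavidin beads and sequenced after selection of RNA with a poly(A) tail. Control groups came from untransfected cells. Each treatment was sampled from the isolated nuclei and from the whole cells. The labels do not say whether control RNA also went over the beads. The labels do not say whether samples of a group came from separate cultures, so p-values measure the spread between these samples, which may be technical. Because the cells are a dividing tumor line, they are a limited model of mature neurons.

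Rbfox proteins bind the sequence GCAUG in pre-mRNA through a single RNA recognition motif and promote or block the use of a nearby exon, depending on which side of the exon they bind. All members of the family share a nearly identical recognition motif. Rbfox1 is found in neurons, heart and skeletal muscle, Rbfox2 is broadly expressed and already present in dividing progenitors, and Rbfox3, known as the NeuN antigen, marks mature neurons. Much nuclear Rbfox protein sits in a large assembly of splicing regulators (LASR) with several hnRNP proteins, while other isoforms are cytoplasmic and bind 3′ UTRs.

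Because a miRNA pairs with most of its known targets through its seed, the mature miRNA is shown with its seed, bases 2 to 8, in capitals (RefSeq, GRCm38.p6, chromosome 3, 89227126 to 89227147, minus strand). The labels name *miR-92b* without an arm, and the 3p arm is the one shown. Below it are the stretches of the Rbfox 3′ UTRs (GENCODE M21, GRCm38) that can pair with the start of the miRNA, with the pairing bases in capitals. The 8-base match in Rbfox3 pairs with bases 1 to 8, the 7-base match in Rbfox2 with bases 1 to 7, and the 6-base matches in Rbfox2 and Rbfox1 with bases 2 to 7.
mmu-miR-92b-3p: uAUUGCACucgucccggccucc
Rbfox2, chr15:77084097-77084120, minus strand: tgaggcctggctatTGCAATAttt
Rbfox2, chr15:77082292-77082315, minus strand: ggagggccttaaccTGCAATtgac
Rbfox3, chr11:118491949-118491972, minus strand: cacactgttctgtGTGCAATActg
Rbfox1, chr16:7411013-7411036, plus strand: cgctgtgagcaactTGCAATtttt

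The 7-base Rbfox2 site lay in the 3′ UTR of 7 of its 8 annotated coding transcripts with a complete 3′ end, and the 6-base site in 2 of them. The Rbfox3 site lay in 1 of 6 such transcripts, Rbfox3-201. No Rbfox1 transcript held a match of 7 or 8 bases, and its 6-base match was in 1 of 4 transcripts, Rbfox1-201. Matches were searched as GTGCAAT or TGCAATA on the transcript strand, which overlap in the 8-base form GTGCAATA. Of 21005 genes with a 3′ UTR, 13.28% held a match of 7 or 8 bases and 2.4% held the 8-base form, and a match is given as a description.

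The depth was 3752991 to 22920037 reads per sample on loci with a symbol. Fractionation was visible in the nuclear RNAs Malat1 and Neat1, which were higher in nuclear samples by 0.93 and 0.93 on the log2 scale, and in the cytoplasmic mRNAs Gapdh and Actb, which were lower (-2.21 and -2.03, limma, adjusted p between 8.89e-08 and 0.001678). The nuclear RNA Meg3 was not called (0.58, limma adjusted p = 0.748), and Miat, at 0 in 16 samples, was not tested. The sympathetic neuroblastoma markers Phox2a, Hand2, Isl1 and Th had reads in all 18 samples. Of the neuronal genes, Stmn2, Gap43 and Map2 had reads in all 18 samples, Nefm in 1 and Nefl in 0. Of markers of other cell types, Mbp had reads in 18 samples, Gfap and Pecam1 in 17 each, Col1a1 in 5, and Ptprc and Epcam in 1 each, and their part in the results was not tested. The whole cell *miR-92b* 3 sample stood apart from the other 17 on the first principal component (221 against -72.55 to 65.89), and nuclear Scr 2 and 3 on the second (-176 and -101 against -43.91 to 38.46).

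Rbfox2 was the abundant member, with a mean of 30.8 FPKM (fragments scaled to transcript length and library size) over the 18 samples, against 0.672 FPKM for Rbfox1 and 0.144 FPKM for Rbfox3. Rbfox2 had reads in all 18 samples, Rbfox1 in 11 and Rbfox3 in 4. Summed over the samples, 36160 reads lay on Rbfox2, 224 on Rbfox1 and 30 on Rbfox3. Per transcript length, the member of progenitors was thus the most abundant and the NeuN gene the least.

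Rbfox2 is listed as 1 locus at chromosome 15, 77078990 to 77307053 (GRCm38), which spans its annotated gene on the minus strand. Its normalized counts (reads on the locus divided by a size factor of the sample) were 1258, 1193 and 1813 in nuclear control, 1362, 1067 and 1286 in nuclear Scr, and 1272, 1356 and 1426 in nuclear *miR-92b*. In whole cell lysates they were 1464, 1556 and 1458 in control, 1189, 1680 and 1569 in Scr, and 2772, 4906 and 2490 in *miR-92b*. The 3 whole cell *miR-92b* samples lay above all 15 other samples. Whole cell control lay above nuclear Scr and nuclear *miR-92b*, and the other pairs among the remaining 5 groups overlapped. How many of all loci separate in these pairs was not counted, so nothing is read from the separation.

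By mean normalized count, the order was whole cell *miR-92b* (3390 ± 1321, SD, n = 3), whole cell control (1493 ± 55.0), whole cell Scr (1479 ± 258), nuclear control (1421 ± 341), nuclear *miR-92b* (1351 ± 77.4) and nuclear Scr (1238 ± 153). Below the first place, the ranges of neighbours in this order overlapped. Per transcript length, Rbfox2 was at 50.8, 90.0 and 47.9 FPKM in whole cell *miR-92b* and at 17.9 to 32.2 FPKM elsewhere, so both deposited scales placed the same 3 samples highest.

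**Figure D1:**
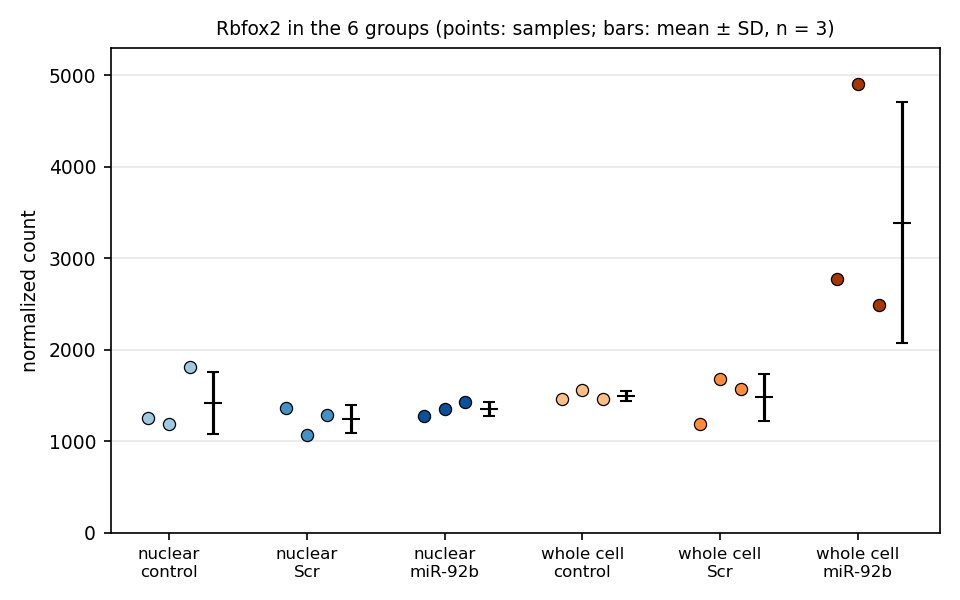
Normalized counts of Rbfox2 (vertical axis) in the 6 groups, 1 point per sample, with the mean and SD of each group (n = 3) beside the points. The whole cell *miR-92b* samples lie between 2490 and 4906, and the other 15 samples lie between 1067 and 1813.

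The values that chose the family were those of whole cell *miR-92b*, where Rbfox2 was 2.21-fold higher than in Scr (log2 fold change 1.14, SE 0.22) and 2.17-fold higher than in control (1.12, SE 0.22). These are descriptions with no test. The whole cell *miR-92b* 2 sample held the largest value, and without it the log2 fold changes were 0.84 and 0.82. Without *miR-92b* 3, the sample that stood apart, they were 1.33 and 1.30. Of 15579 loci tested (mean normalized count of at least 10), 4.32% had all whole cell *miR-92b* values above all Scr values, 3.21% had them above all control values, and 0.449% had them above all 15 other samples. Since the family was picked on these samples, nothing is read from these shares. The nuclear and whole cell *miR-92b* groups differed in Rbfox2 by -1.26 (SE 0.22), which uses the same selected samples.

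Whether nuclear *miR-92b* also held more Rbfox2 RNA was tested between groups that the choice had not used. It was 1.10-fold the level of nuclear Scr, with a log2 fold change of 0.13 (SE 0.22, 95% CI -0.32 to 0.58, limma adjusted p = 1). Against nuclear control the log2 fold change was -0.05 (95% CI -0.50 to 0.40, limma adjusted p = 0.9999). All 3 nuclear *miR-92b* values lay within the range of nuclear control. The spread used in these tests was estimated from all 6 groups, whole cell *miR-92b* included. Without nuclear Scr 2 or 3, the samples that stood apart, the log2 fold change against Scr was 0.028 or 0.16. No locus was called in these comparisons by limma (0% of 15579, with 687 and 50 loci at an unadjusted p under 0.05). edgeR called 0 in both, and DESeq2 called 1 and 0. The difference between the nuclear and the whole cell response was not tested, because its whole cell side chose the family.

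Rbfox2 did not differ detectably between compartments in the samples without *miR-92b*. Over control and Scr, nuclear samples were 0.887-fold whole cell samples (log2 fold change -0.17, SE 0.15, 95% CI -0.49 to 0.15, limma adjusted p = 0.471), while 19.2% of tested loci were called in this comparison. In control alone the log2 fold change was -0.10 (limma adjusted p = 0.854, 9.85% of loci called) and in Scr alone it was -0.25 (limma adjusted p = 0.537, 5.17% called). The compartment effects in control and Scr differed by 0.15 (95% CI -0.48 to 0.79, limma adjusted p = 0.957).

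No difference in Rbfox2 was detected between the scrambled mimic and control. Nuclear Scr differed from nuclear control by -0.18 on the log2 scale (95% CI -0.63 to 0.27, limma adjusted p = 0.981), and whole cell Scr from whole cell control by -0.03 (95% CI -0.48 to 0.42, limma adjusted p = 0.997). limma called no locus in these 2 comparisons or in the difference of compartment effects (0% each, with 916, 793 and 823 loci at an unadjusted p under 0.05). edgeR called 0 in all 3, and DESeq2 called 0, 37 and 8.

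**Figure D2:**
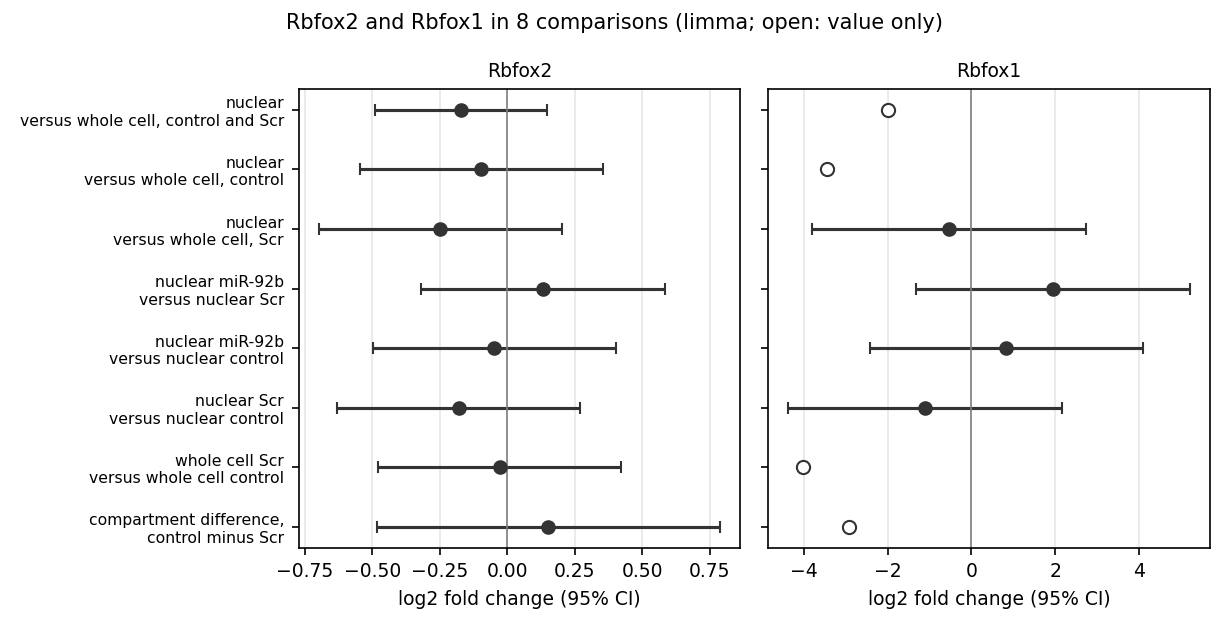
Log2 fold changes (points) with 95% confidence intervals (bars) of Rbfox2 (left) and Rbfox1 (right) in 8 comparisons, from limma on log2(normalized count + 1), with open points without an interval for Rbfox1 comparisons that use whole cell control. The Rbfox2 values lie between -0.25 and 0.15 with every interval across 0. The Rbfox1 intervals, on a far wider axis, also cross 0 but rest on few reads, and no conclusion is drawn from them.

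The region of Rbfox2 also holds RNA that is not counted on Rbfox2. A further 9 named loci share its listed coordinates with values of their own, 8 of them named 1700109K24Rik and 1 named Gm24056. In GENCODE, 1700109K24Rik is an antisense gene on the plus strand (chromosome 15, 77084398 to 77096314) that overlaps 4 exons of coding Rbfox2 transcripts, and Gm24056 is an snRNA gene of 146 bases (77242406 to 77242551, minus strand) that overlaps no such exon. These loci were examined after their values were seen. The library kit keeps strand, but the strand setting of the counting is not given in the sources used here, so RNA of Rbfox2 introns, of the antisense gene and of the snRNA gene cannot be told apart.

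The Gm24056 locus had normalized counts of 1430, 1367 and 1384 in nuclear control, 1481, 1166 and 1400 in nuclear Scr, and 1333, 1416 and 1354 in nuclear *miR-92b*. In whole cell lysates it had 756, 732 and 663 in control, 713, 1034 and 989 in Scr, and 978, 695 and 240 in *miR-92b*. Every nuclear sample lay above every whole cell sample, the selected whole cell *miR-92b* samples included. The share of all loci with such a separation was not counted, so nothing is read from it. Over control and Scr the log2 fold change of nuclear over whole cell was 0.77 (SE 0.21, limma adjusted p = 0.0141), a call lost on the FPKM scale (adjusted p = 0.0842). In control alone it was 0.96 (limma adjusted p = 0.0458) and in Scr alone 0.58 (limma adjusted p = 0.269). The count per FPKM, which grows with the transcript length that the authors' tool assigned, had a median of 90.5 for this locus and 56.9 for Rbfox2, although the annotated snRNA is far shorter than an Rbfox2 mRNA.

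Summed over the 9 loci, the normalized count was 2087 to 2330 in the 9 nuclear samples, 1024 to 1532 in the 6 whole cell control and Scr samples, and 1559, 1222 and 472 in whole cell *miR-92b*. Of all counts at the Rbfox2 coordinates, these loci held 53.9% to 67.0% in nuclear samples, 41.2% to 49.4% in whole cell control and Scr, and 36.0%, 19.9% and 15.9% in whole cell *miR-92b*. This share does not depend on a size factor. Its total includes Rbfox2, on which the family was chosen, so nothing is read from the low shares in whole cell *miR-92b*. The lowest share was that of *miR-92b* 3, the sample that stood apart. How often other loci separate nuclear from whole cell samples was not counted, so nothing is read from the separate ranges of sums and shares. Summed normalized counts of 4 nuclear marker RNAs were 63645, 56660 and 30440 in whole cell *miR-92b*, 50718 to 68704 in control and 62327 to 79090 in Scr. Those of the 2 cytoplasmic mRNAs were 9209, 7462 and 24978, against 12516 to 13249 and 8645 to 9259. The part of these RNAs in the share was not tested. In nuclear against whole cell samples of control and Scr, all 9 loci had positive log2 fold changes (0.10 to 2.77), of which 2 were called by limma against 19.2% of all loci. In control alone all 9 were positive with 1 called, against 9.85% of all loci. In Scr alone 7 were positive (lowest -1.30) with 0 called, against 5.17% of all loci. The second called locus, named 1700109K24Rik, had a log2 fold change of 1.54 (SE 0.54, limma adjusted p = 0.0486) and overlapped between the compartments. That call was lost with edgeR (adjusted p = 0.111), DESeq2 (0.0739), FPKM (0.0648), a pseudocount of 0.5 (0.0532), no filter (0.0875), the compared groups alone (0.0677) and without each of 7 single samples (highest adjusted p = 0.126).

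**Figure D3:**
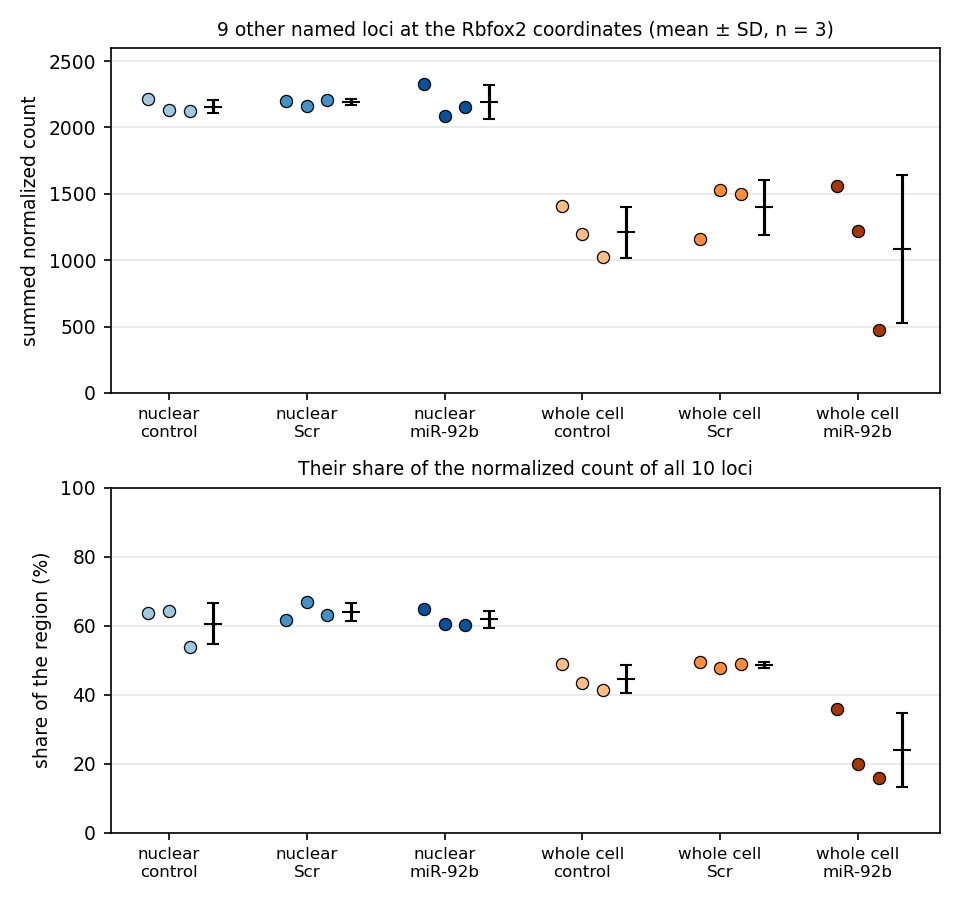
Summed normalized count of the 9 other named loci at the Rbfox2 coordinates (top) and their share, in %, of the counts of all 10 loci (bottom), 1 point per sample, with the mean and SD of each group (n = 3). The 9 nuclear samples lie between 53.9% and 67.0%, and whole cell *miR-92b* samples between 15.9% and 36.0%. The total includes Rbfox2, on which the family was chosen, so nothing is read from the latter.

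Rbfox1, the member tied to mature neurons and muscle, was near the limit of detection. Its locus spans chromosome 16, 6809222 to 7412479 (GRCm38), while the annotated gene on the plus strand starts at 5885355, so the locus leaves out the most upstream part. The normalized counts were 10.1, 2.69 and 0 in nuclear control, 3.05, 0 and 0 in nuclear Scr, and 15.02, 1.35 and 5.14 in nuclear *miR-92b*. In whole cell lysates they were 36.5, 45.8 and 29.6 in control, 0, 0 and 11.3 in Scr, and 0, 41.4 and 0 in *miR-92b*. Whole cell control was the only group with a high value in every sample, and single samples elsewhere reached its range only in whole cell *miR-92b* 2. These values rest on 31, 53 and 38 reads in whole cell control, 29 reads in whole cell *miR-92b* 2 and 43 reads in whole cell Scr 3, the deepest sample.

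By mean normalized count, Rbfox1 was highest in whole cell control (37.3 ± 8.14, SD, n = 3), then in whole cell *miR-92b* (13.8 ± 23.9), nuclear *miR-92b* (7.17 ± 7.06), nuclear control (4.27 ± 5.24), whole cell Scr (3.75 ± 6.50) and nuclear Scr (1.02 ± 1.76). The ranges of all neighbours in this order overlapped. Rbfox1 passed the filter on low values with a mean of 11.2, but through whole cell control: over the 15 other samples its mean was 6.0. A comparison with that group is therefore not independent of the filter, and its values are descriptions with no test.

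In control, nuclear and whole cell samples differed in Rbfox1 by -3.45 on the log2 scale (SE 1.58), over control and Scr by -1.99 (SE 1.12), and the effects in control and Scr differed by -2.92. None of the comparisons without whole cell control was called. Rbfox1 entered these tests only through that group, and the groups compared held 2 to 43 reads each in all. They cannot decide whether Rbfox1 differed, and no conclusion is drawn from them. In Scr the log2 fold change was -0.53 (SE 1.58), and without whole cell Scr 3 its direction turned (0.67).

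Between treatments, the difference of whole cell Scr from whole cell control in Rbfox1 was -4.03 on the log2 scale (SE 1.58), given without a test. Nuclear *miR-92b* differed from nuclear Scr by 1.95 and from nuclear control by 0.83, and nuclear Scr differed from nuclear control by -1.11. Rbfox1 passed the filter only through whole cell control, so these nuclear values are descriptions too. Whole cell *miR-92b* differed by 0.60 from Scr and by -3.44 from control, given without a test. In bulk samples, capture on the beads, fewer cells with Rbfox1 RNA and less of it per cell cannot be told apart. The FPKM values did not follow the counts among whole cell controls (4.93, 1.69 and 1.37 FPKM). FPKM also depends on the assigned transcript length, whose part in this was not tested.

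Rbfox3, which encodes the NeuN antigen of mature neurons, lies on the minus strand of chromosome 11, 118489762 to 118911597 (GRCm38). It was at 0 in 14 of 18 samples, where 3 reads, the limit that a count of 0 allows, would be a normalized count of 1.01 to 4.75. The other samples had normalized counts of 28.6 (20 reads, whole cell *miR-92b* 2), 7.09 (7 reads, whole cell Scr 2), 2.57 (2 reads, nuclear *miR-92b* 3) and 0.262 (1 read, whole cell Scr 3). These limits cover counting error only. No nuclear control, nuclear Scr or whole cell control sample had a read.

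With a mean normalized count of 2.14, Rbfox3 stayed below the filter. Nuclear and whole cell samples of control and Scr differed by -0.56 in mean log2(normalized count + 1), with an exact permutation p = 0.4545 (two-sided, 6 against 6 samples). With 10 of these 12 samples at 0, that is the smallest p the test can give, so it could not pass. Without whole cell Scr 2 the difference was -0.067. The whole cell *miR-92b* 2 sample thus held the highest value of Rbfox2 and Rbfox3 and the second highest of Rbfox1, whereas whole cell *miR-92b* 1 and 3 had no read on Rbfox1 or Rbfox3.

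**Figure D4:**
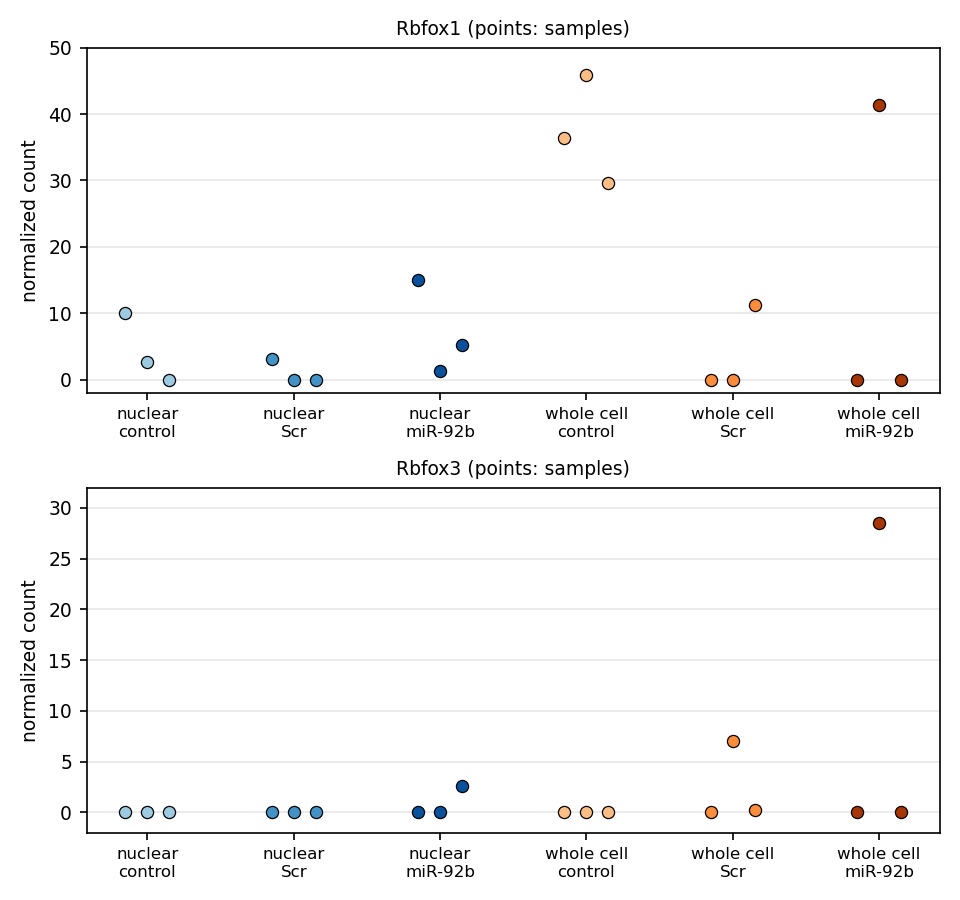
Normalized counts of Rbfox1 (top) and Rbfox3 (bottom) in the 6 groups, 1 point per sample, on separate linear axes. Whole cell control samples of Rbfox1 lie between 29.6 and 45.8, and Rbfox3 is above 10 in 1 sample, whole cell *miR-92b* 2.

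The loci whose profile was nearest to Rbfox2 over the 18 samples, by the root mean square difference of log2 values centred on each locus, were Fam220a (0.274), Med15, a Mediator subunit (0.331), and Serinc1, a serine incorporator (0.331), against a median of 0.970 over all loci. When the whole cell *miR-92b* group was left out, none of them stayed among the nearest 3 (ranks 746, 230 and 62). For Rbfox1 they were Nfkbie, an inhibitor of NF-κB (1.41), Pcdh12, a protocadherin (1.46), and Arhgap28, a GTPase-activating protein (1.48), against a median of 2.23. Without that group their ranks were 31, 5 and 16.

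The partners of Rbfox in LASR were all detected. Of its 10 members, 2 were higher and 3 lower in nuclear than in whole cell samples of control and Scr, and 5 were not called, with a median log2 fold change of 0.05 against 0.03 over all loci and 19.2% of loci called. Hnrnph1, which binds G-rich RNA, was higher by 0.67 (SE 0.13, limma adjusted p = 0.000689), and the locus that joins Matr3, a nuclear matrix protein, with Snhg4 and other genes by 0.39. Hnrnpc, which binds U-rich RNA, was lower (-0.93, SE 0.20, limma adjusted p = 0.0018), followed by Hnrnpf (-0.69) and Hnrnpul2 (-0.56). The Matr3 locus had the highest mean normalized count of the list (6873).

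Among 28 other regulators of alternative splicing, 24 were tested in the same comparison. Of these, 7 were higher, 6 lower and 11 not called (median -0.03). Over all loci, 19.2% were called and the median was 0.03. Celf2, Khdrbs2, Khdrbs3 and Esrp1 were below the filter. Some paralogs were called in opposite directions, and others in the same direction. Nova1, a neuronal RNA-binding protein, was higher in nuclear samples by 1.10 (SE 0.19, limma adjusted p = 0.000257), and its paralog Nova2 was lower (-1.15, SE 0.20, adjusted p = 0.000293). Ptbp2, the neuronal polypyrimidine tract binding protein, counted on a locus joined with Gm42664 and Gm43300, was higher by 0.88 and had the highest mean of the list (6241), while Ptbp3 was lower (-1.11). Elavl2 was higher by 0.72, and the locus of its paralog Elavl3, joined with Zfp653, was lower (-0.96). Rbfox2, at -0.17, lay between these extremes.

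Of 15 genes with exons that Rbfox proteins are known to regulate, 12 were tested. Of these, 2 were higher in nuclear samples, 1 lower and 9 not called (median 0.02). The share called over all loci was 19.2%, with a median of 0.03. Ptbp2, whose locus had the highest mean, and Snap25, a SNARE protein of synaptic vesicle fusion (0.57, SE 0.13), were higher, and Mef2d, a transcription factor (-0.60, SE 0.16), was lower. Mef2c and Calca were below the filter. Gene totals do not show exon use, so these values do not bear on splicing. In the 4 comparisons between treatments and in the difference of compartment effects, limma called no locus at all, and so no member of the 3 lists.

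**Figure D5:**
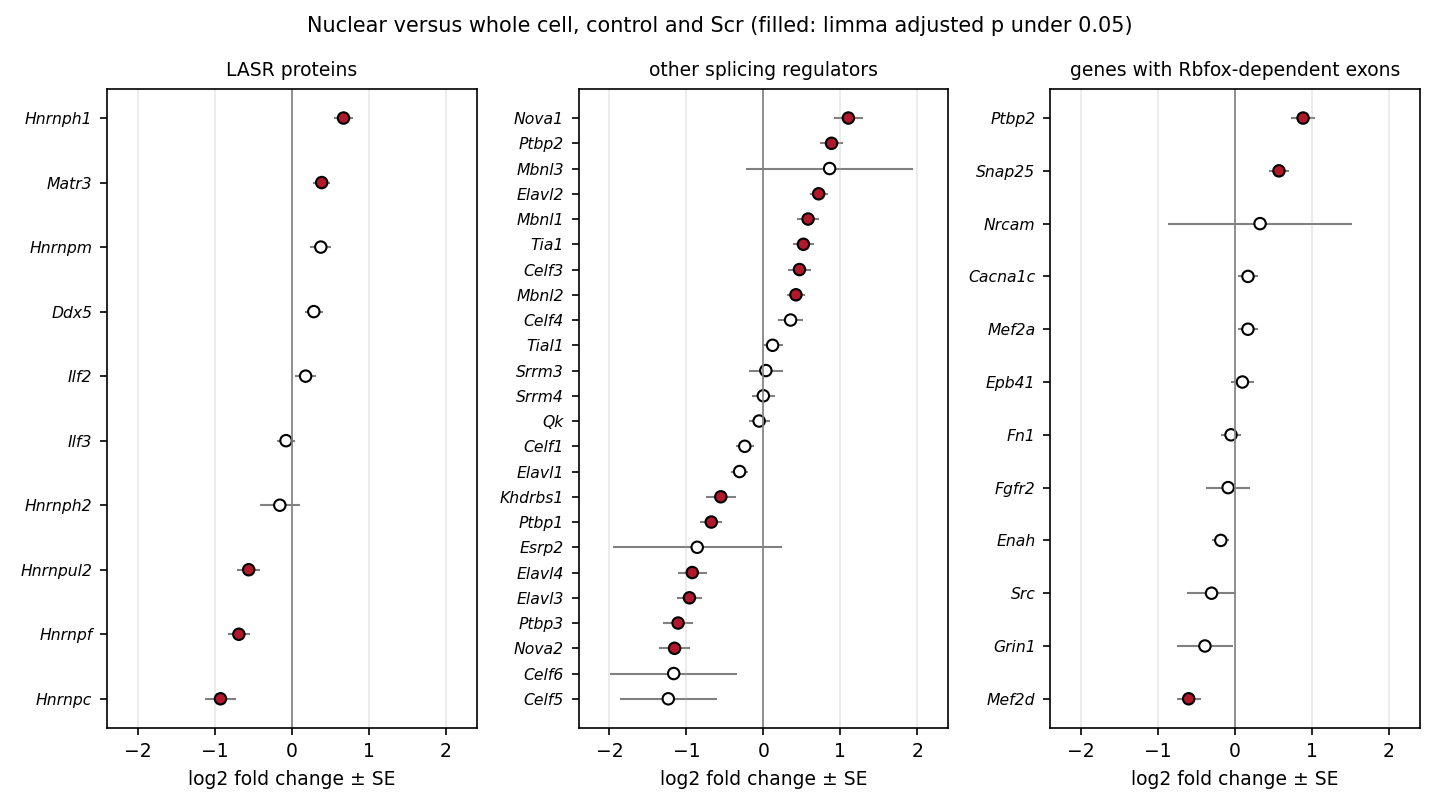
Log2 fold changes of nuclear over whole cell samples of control and Scr (horizontal axis, point ± SE, limma) for LASR members (left), other splicing regulators (middle) and genes with Rbfox-dependent exons (right), with filled points for an adjusted p under 0.05. Called points lie on both sides of 0 in each panel, from -1.15 for Nova2 to 1.10 for Nova1.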

How the data were processed

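RNA sequencing of 18 samples was analysed from 2 deposited tables. The authors used bcl2fastq 2.17, Trimmomatic 0.30, TopHat2 and Cufflinks on the mouse build GRCm38 (mm10), per the submitters' processing notes. For TopHat2, Cufflinks and the annotation, releases are not given in the sources. The deposited normalized counts, a signal, are reads per locus over 1 size factor for each sample. FPKM values, also deposited, are scaled to transcript length and mapped fragments. The authors' Cuffdiff comparisons were not used. Of 635205 normalized counts above 0, 99.943% were whole multiples of 1 read (within 0.02 reads), so reads were recovered for edgeR and DESeq2. Loci without a symbol, with 4.513% to 15.277% of reads, were left out of tests.

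Because the table holds normalized counts, limma 3.58.1 (R 4.3.3) with a trended variance on log2(normalized count + 1) was used, in 1 model of 6 groups, two-sided, with Benjamini-Hochberg adjustment over 15579 loci (mean of at least 10) and a threshold of 0.05. Fold changes are on the log2(normalized count + 1) scale, which understates changes of low loci. Rbfox3 was tested by an exact permutation test. The members and gene lists were chosen with earlier results of these data known. Loci were named by rule (members, nearest profiles, the highest mean and up to 3 called loci per direction of each list), and the other loci at the Rbfox2 coordinates were added after the data were seen. Some markers and list members are not reported here. Alternatives were pseudocounts of 0.5 and 8, other filters, FPKM with a pseudocount of 0.1, 2 other scalings, other models and weights, a replicate block, edgeR 4.0.16, DESeq2 1.42.0 and each sample left out. The fit was tested on simulated data. Listed starts were raised by 1 to give 1-based coordinates, since 22503 of 27270 single-gene loci then matched GENCODE starts.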

Additional observations from a re-analysis of the deposited data

How the results depend on the processing

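For nuclear against whole cell control, quantile normalization gave -4.03 for Rbfox1 instead of -3.45. It was the 1 setting in which Rbfox1 passed the threshold. That comparison is not independent of the filter on low values, so nothing is read from the pass. Quantile normalization also turned Rbfox1 in nuclear *miR-92b* against Scr (-0.16) and nuclear Scr against control (0.23), and nuclear against whole cell *miR-92b* (-1.51 instead of 0.82). arrayWeights turned nuclear *miR-92b* against control (-0.079), and for whole cell *miR-92b* against control edgeR gave -1.49 and DESeq2 -1.43. With each sample left out, the Rbfox1 log2 fold changes ranged from -1.21 to 0.67 (nuclear against whole cell Scr) and from -0.061 to 1.68 (nuclear *miR-92b* against control). With a mean of at least 50, Rbfox1 was not tested.

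Rbfox2 was called in none of the tested comparisons under any alternative. Its direction turned in comparisons with log2 fold changes between -0.18 and 0.15, each with an interval across 0. At the same median in all samples it was 0.027 for nuclear against whole cell control and 0.026 for whole cell Scr against control. arrayWeights gave 0.12 (nuclear *miR-92b* against control), 0.036 (nuclear Scr against control), 0.034 (whole cell Scr against control) and -0.0017 (difference of compartment effects). With each sample left out, the ranges were -0.28 to 0.017 (nuclear against whole cell control), -0.16 to 0.14 (nuclear *miR-92b* against control), -0.29 to 0.0083 (nuclear Scr against control), -0.13 to 0.12 (whole cell Scr against control) and -0.036 to 0.30 (difference of compartment effects). For whole cell *miR-92b* they were 0.84 to 1.33 against Scr, 0.82 to 1.30 against control and -1.45 to -0.96 for nuclear against whole cell. The cause of these shifts was not tested.

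Sample numbers did not pair the samples (correlations of deviations -0.0438 to 0.109 over 45 pairs). With a replicate block, Rbfox2 kept -0.17 for nuclear against whole cell (adjusted p = 0.468), no Rbfox call changed, and 3060 loci were called instead of 2988. Called loci in control ranged from 850 to 4315 (1535 reported) and in Scr from 386 to 1720 (805 reported). The LASR members called higher numbered 0 to 4 (2 reported), the other regulators 2 to 7 (7 reported) and the genes with Rbfox-dependent exons 1 to 2 (2 reported), with the lowest values on the FPKM scale. Rbfox2 had at least 871 reads per sample, whereas Rbfox1 and Rbfox3 had at most 53 and 20, so depth limits what can be said of those.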

Other observations

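Inside the annotated Rbfox1 gene, 445 loci without a symbol were listed, and none inside Rbfox2 or Rbfox3. Their summed normalized count was 170, 239 and 929 in nuclear control, 146, 814 and 1443 in nuclear Scr, and 160, 805 and 163 in nuclear *miR-92b*. In whole cell lysates it was 604, 618 and 438 in control, 920, 1112 and 702 in Scr, and 682, 1351 and 204 in *miR-92b*. The sum exceeded the value of the Rbfox1 locus in every sample. Nuclear Scr 3, the highest, also had the highest share of reads on loci without a symbol over the whole genome (15.277%), and whole cell *miR-92b* 3 the lowest share (4.513%). The part of that share in these sums was not tested. These loci were examined after their values were seen.

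Of the gene lists, 5 of 24 tested splicing regulators (Nova1, Ptbp2, Qk, Esrp2 and Tia1) and 3 of 12 tested genes with Rbfox-dependent exons (Ptbp2, Mef2d and Cacna1c) had a 3′ UTR with a match of 7 or 8 bases to the seed of *miR-92b*, as did none of the 10 LASR members, against 13.28% of all genes with a 3′ UTR.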
